A study of Mus musculus with 2 samples.

Results

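The genes described here are 10 that encode carriers, binding proteins and transporters of the tissues bordering the cerebrospinal fluid, out of 55536 annotated genes measured in hippocampal RNA. They were chosen by symbol from a fixed list, and the list was drawn up with the difference between the libraries already known. Of these, 5 were grouped as genes of the choroid plexus epithelium (Ttr, Clic6, Folr1, Kl and Enpp2) and 4 as genes of the meninges (Ptgds, Igf2, Fmod and Slc6a13). The last, Igfbp2, is made by both and was kept apart. The grouping is not exclusive, as Ptgds and Igf2 are also made in choroid plexus. Not all encode secreted carriers: Clic6 encodes an intracellular protein, Folr1 a membrane-anchored receptor, Slc6a13 a membrane transporter, and Kl a membrane protein that is also shed. RNA came from hippocampus of female B6CASTF1/J mice, the first-generation cross of C57BL/6J and CAST/EiJ, aged 18 to 20 months and given no treatment that the labels name. There were 2 libraries of this 1 group, replicates 1 and 2, each made from 300 ng of total RNA with ERCC spike-ins after ribosomal RNA reduction. Because both libraries share a donor label, it is not known whether they come from separate animals, and their spread may be technical. Excitatory neuron markers summed to 2639 and 2479 TPM, and none of the 7 was at 0. With 1 group no test between groups exists, and each difference below is between these libraries and has no replicate check.

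The choroid plexus is a folded epithelium in the brain ventricles that secretes cerebrospinal fluid and loads it with carrier proteins, and it hangs in the ventricle beside the hippocampus. The meninges are layers of fibroblast-like cells that cover the brain surface, follow larger vessels inward, and form a barrier of their own. Neither is part of the hippocampal tissue proper. In bulk RNA, fewer cells of a type and less RNA per cell cannot be told apart.

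The sequence before the transcription starts of these genes is shown, as RefSeq gives it on GRCm38.p6, which is mm10. Its part in the difference between the libraries was not tested. Of the 10 genes, 6 matched the promoter table; Ttr, Clic6, Folr1 and Enpp2 did not. Each stretch runs 5′ to 3′ on the gene's strand and ends at the RefSeq start, or, for Ptgds and Slc6a13, leaves out the bases that lie in an annotated exon. The Ptgds stretch lies downstream of the start of transcript Ptgds-202, outside its exons. Capitals mark GGGCGG, the GC box bound by Sp1-type factors, CAGCNGG, a core bound by ZIC factors, and TAATCC, the core bound by OTX homeodomain factors, each on either strand.
Kl, chr5:150952357-150952606, plus strand: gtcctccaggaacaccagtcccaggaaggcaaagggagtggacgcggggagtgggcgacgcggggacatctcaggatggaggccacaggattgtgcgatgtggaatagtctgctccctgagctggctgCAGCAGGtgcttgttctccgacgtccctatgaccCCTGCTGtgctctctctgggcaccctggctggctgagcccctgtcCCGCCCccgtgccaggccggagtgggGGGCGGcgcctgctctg
Igfbp2, chr1:72824230-72824479, plus strand: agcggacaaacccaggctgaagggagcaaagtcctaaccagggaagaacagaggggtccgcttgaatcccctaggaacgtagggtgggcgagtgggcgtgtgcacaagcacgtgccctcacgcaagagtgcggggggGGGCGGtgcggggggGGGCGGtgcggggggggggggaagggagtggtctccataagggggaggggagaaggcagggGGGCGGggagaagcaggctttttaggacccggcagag
Ptgds, chr2:25469843-25469999, minus strand: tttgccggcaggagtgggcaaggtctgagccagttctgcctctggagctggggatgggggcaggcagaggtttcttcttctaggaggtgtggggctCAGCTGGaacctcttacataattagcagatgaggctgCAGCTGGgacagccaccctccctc
Igf2, chr7:142657497-142657746, minus strand: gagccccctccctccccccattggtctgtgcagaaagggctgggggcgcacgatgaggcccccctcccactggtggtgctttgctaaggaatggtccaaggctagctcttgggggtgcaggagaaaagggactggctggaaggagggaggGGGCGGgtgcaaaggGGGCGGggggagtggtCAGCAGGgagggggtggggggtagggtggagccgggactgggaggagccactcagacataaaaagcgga
Fmod, chr1:134037004-134037253, plus strand: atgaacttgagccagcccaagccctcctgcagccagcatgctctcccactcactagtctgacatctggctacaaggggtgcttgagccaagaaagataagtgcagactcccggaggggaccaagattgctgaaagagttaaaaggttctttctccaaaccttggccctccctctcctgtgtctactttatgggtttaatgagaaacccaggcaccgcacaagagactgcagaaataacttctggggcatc
Slc6a13, chr6:121300038-121300226, plus strand: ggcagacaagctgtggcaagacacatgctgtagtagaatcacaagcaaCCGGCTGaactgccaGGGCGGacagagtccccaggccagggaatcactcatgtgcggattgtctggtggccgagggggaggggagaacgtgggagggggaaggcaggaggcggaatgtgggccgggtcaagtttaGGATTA

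Over the 250 bases before the start, Kl held 2 GC boxes and 2 CAGCNGG matches, and Igfbp2 held 3 GC boxes. The Igf2 start shown, that of transcript Igf2-201, held 2 GC boxes and 1 CAGCNGG match. The Slc6a13 window held 2 GC boxes, 1 CAGCNGG match and 1 TAATCC match, and one of its GC boxes lies beyond the stretch printed. Ptgds held 2 CAGCNGG matches, both of which also contain the E-box CAGCTG, and Fmod held none of these motifs. TGTTTAC, the forkhead core, and TATAAA, the TATA box, were found in none of the 6 windows. Of 32817 promoter windows of this length, 32.7% held a GC box, 21.4% CAGCNGG, 6.25% TAATCC, 3.16% TGTTTAC and 12.4% TATAAA. GC content was 66.8% for Kl, 67.2% for Igfbp2 and 66.0% for Igf2, against 51.2% for Fmod, 58.4% for Ptgds and a median of 52.4% over all windows. The 6 windows therefore shared no motif that was searched, and the only TAATCC match lay before Slc6a13. Of the choroid plexus genes only Kl had a window, so the classes cannot be compared. Igfbp2, Slc6a13 and Igf2 had further RefSeq starts that are not shown. Before those, the only match was a GC box at another Igf2 start.

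Levels of the 10 genes ranged widely in TPM, an abundance corrected for length that sums to a fixed total in a library. The authors' deposited tables come in the column layout of RSEM, an alignment-based estimator, and in that of kallisto, which assigns reads without a separate alignment. Values are from the RSEM layout unless the other is named. In order of mean TPM, with SD over both libraries (n = 2), Ptgds stood at 404 ± 224, Ttr at 99.8 ± 71.6, Enpp2 at 65.2 ± 17.7, Igf2 at 28.8 ± 14.2 and Igfbp2 at 19.1 ± 2.55. Slc6a13 followed at 6.81 ± 3.01 TPM, Kl at 4.24 ± 0.573, Fmod at 3.44 ± 2.64, Clic6 at 1.19 ± 0.679 and Folr1 at 0.920 ± 0.410. Ttr and Enpp2 overlapped in range, as did Igf2 with Igfbp2, Kl with Fmod, Fmod with Clic6 and Clic6 with Folr1. Slc6a13 and Kl differed by less than the SD of Slc6a13. Ptgds exceeded 99.1% of protein-coding genes in replicate 1 and 99.8% in replicate 2, whereas Folr1 exceeded 42.5% and 38.7%. Every one of the 10 genes had a higher TPM in the kallisto layout in both libraries. Since TPM is relative to the rest of a table, levels are compared only within a layout.

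**Figure D1:**
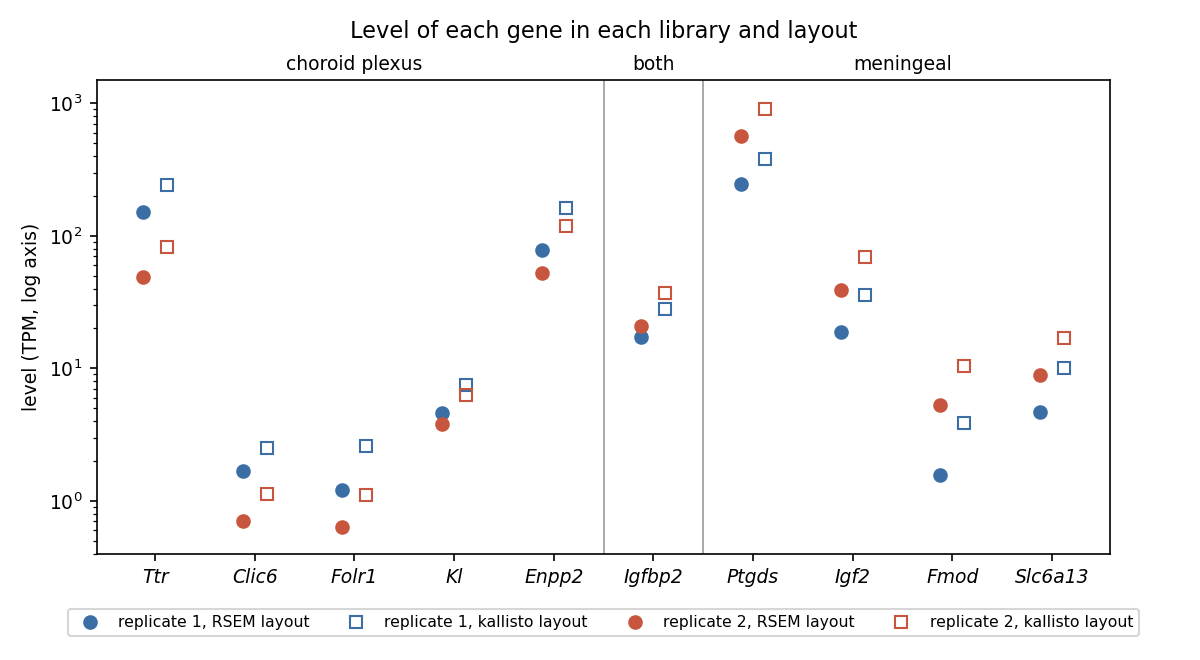
Level of each gene in TPM (log axis) in replicate 1 (blue) and replicate 2 (red), in the RSEM layout (filled circles) and the kallisto layout (open squares). The choroid plexus genes lie higher in replicate 1 and the meningeal genes higher in replicate 2 in both layouts, with Ptgds reaching 562 TPM and Folr1 0.630 TPM in replicate 2 of the RSEM layout.

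Between the libraries, all 5 choroid plexus genes were higher in replicate 1, and all 4 meningeal genes and Igfbp2 were higher in replicate 2. The rule for calling a gene apart asked for a mean of at least 50 expected counts and, after scaling by TMM library factors, a difference over 2-fold. Of the 10 genes 9 reached that count, all but Folr1, and 6 met the rule: Ttr and Clic6, higher in replicate 1, and Ptgds, Igf2, Fmod and Slc6a13, higher in replicate 2. Among all 14307 genes with such a count 0.384% were called, 0.154% higher in replicate 1 and 0.231% higher in replicate 2. In kallisto-layout counts 5 of the 10 were called, with 0.309% of 14902 genes, 0.127% higher in replicate 1 and 0.181% higher in replicate 2. Nothing is read from these counts, because the genes were picked for this difference. The median log2 ratio, replicate 2 minus replicate 1, was -0.97 over the choroid plexus genes and 1.18 over the meningeal genes, or -1.14 and 1.18 in the kallisto layout. The value of -0.97 is that of Folr1, the gene below the count minimum. Over the choroid plexus genes that reached the minimum the median was -0.82. Over all counted genes the median log2 ratio was 0.00, with the 5th and 95th percentiles at -0.25 and 0.28.

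**Figure D2:**
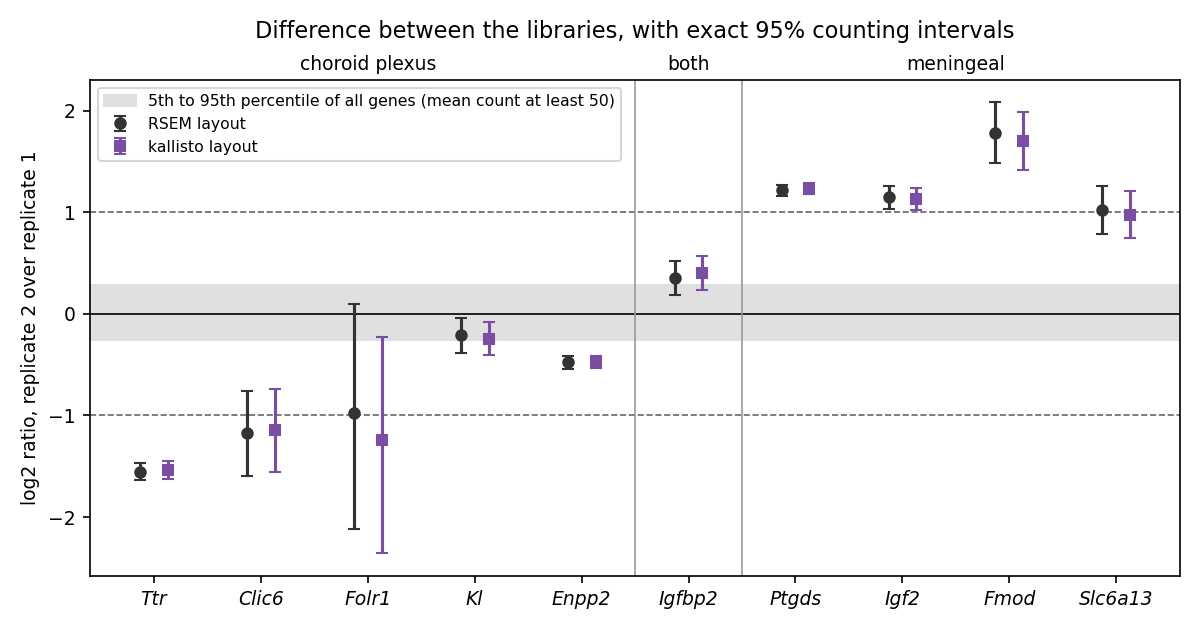
Log2 ratio of scaled counts, replicate 2 over replicate 1, for each gene in the RSEM layout (black circles) and the kallisto layout (purple squares), with exact 95% binomial intervals that cover counting error only. The grey band holds the 5th to 95th percentile of all counted genes and dashed lines mark 2-fold. Ttr lies lowest at -1.55 and Fmod highest at 1.78, while Kl at -0.21 lies within the band.

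Ttr encodes transthyretin, the carrier of thyroid hormone and of retinol-binding protein in cerebrospinal fluid, and is the most abundant product of choroid plexus epithelium. Ttr (mm10 chromosome 18, 20665280 to 20674321, plus strand) drew 4171 counts in replicate 1 against 1456 in replicate 2, or 150 against 49.1 TPM. By scaled counts it was 2.93-fold higher in replicate 1, with an exact 95% counting interval of 2.76 to 3.12. In the kallisto layout it held 3892 and 1360 counts, at 240 and 81.9 TPM, a 2.91-fold difference. Kallisto-layout counts of Ttr were 0.933 and 0.934 times the RSEM-layout counts, so the shortfall was alike in both libraries. Its only annotated transcript, Ttr-201, took all of its reads.

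Clic6 encodes a chloride intracellular channel family protein enriched in this epithelium. Clic6 (chromosome 16, 92485736 to 92541243) drew 156 counts in replicate 1 against 71 in replicate 2, or 1.67 against 0.710 TPM. That is 2.25-fold higher in replicate 1 (counting interval 1.69 to 3.02), and 2.21-fold in the kallisto layout with 163 and 75 counts. The ratio of Ttr to Clic6 TPM was 90.1 in replicate 1 and 69.2 in replicate 2, a smaller change than that of either gene. The other CLIC genes, Clic4, Clic1 and Clic5, were at log2 ratios of -0.11, 0.40 and -0.15. None of the 3 counted was called apart, where 0.384% of all counted genes were.

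Folr1 encodes folate receptor alpha, which moves folate across the choroid plexus into the fluid. Folr1 (chromosome 7, 101858331 to 101870788, minus strand) drew only 23 counts in replicate 1 against 12 in replicate 2, or 1.21 against 0.630 TPM. Its 1.96-fold difference has a counting interval from 0.937 to 4.33, so at this depth no difference could be detected. In kallisto-layout counts, 28 and 12, the interval of its log2 ratio ran from -2.35 to -0.22 and left out 0. The log2 ratios of the RSEM and kallisto layouts, -0.97 and -1.24, each lay within the interval of the other. Folr1 overlaps Anapc15 on the opposite strand, which held 408 and 402 counts, and although the spike-in label speaks of stranded libraries, it is not known whether the counting used strand.

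Kl encodes klotho, a co-receptor for endocrine FGF23 that is also shed into the fluid. Kl (chromosome 5, 150952607 to 150993817) drew 595 counts in replicate 1 against 526 in replicate 2, or 4.64 against 3.83 TPM. It was 1.16-fold higher in replicate 1 (1.03 to 1.31), the smallest difference among the 10, and 1.18-fold in the kallisto layout. Kl and Ttr therefore did not keep their proportion: Ttr stood at 32.4 times the TPM of Kl in replicate 1 and 12.8 times in replicate 2. Kl is also made by neurons, and the excitatory neuron list lay at a median log2 ratio of 0.00. The part of neurons in the Kl value was not tested. The annotated retained-intron transcript Kl-202 took 1.76% and 2.11% of Kl TPM, and 7.91% and 6.09% in the kallisto layout.

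Enpp2 encodes autotaxin, the secreted enzyme that makes lysophosphatidic acid from lysophosphatidylcholine. Enpp2 (chromosome 15, 54838901 to 54952892, minus strand) drew 4942 counts in replicate 1 against 3638 in replicate 2, or 77.7 against 52.7 TPM. It was 1.39-fold higher in replicate 1 (1.33 to 1.45), and 1.39-fold in the kallisto layout. Oligodendrocytes also make Enpp2, and all 10 oligodendrocyte markers lay lower in replicate 2, at log2 ratios from -0.54 to -0.06 with the median at -0.35. Summed, they stood at 1285 and 933 TPM. The log2 ratio of Enpp2, -0.48, lay inside that range, as did that of Kl at -0.21, while those of Ttr and Clic6 lay below it. The value of Folr1 was lower too, but its counting interval, -2.11 to 0.09, covered the whole range. The part of oligodendrocytes in the Enpp2 value was not tested. Ttr and Enpp2 changed places, with Ttr at 1.94 times the TPM of Enpp2 in replicate 1 and 0.933 times in replicate 2.

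Igfbp2, a secreted binding protein of insulin-like growth factors, is made by choroid plexus and meninges and, in the adult brain, also by astrocytes. Igfbp2 (chromosome 1, 72824503 to 72852474) drew 527 counts in replicate 1 against 689 in replicate 2, or 17.3 against 20.9 TPM. It was 1.28-fold higher in replicate 2 (1.14 to 1.43), and 1.32-fold in the kallisto layout. Its log2 ratio of 0.35 lay between those of both classes and above the 95th percentile of all genes.

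Ptgds encodes lipocalin-type prostaglandin D2 synthase, an enzyme that also binds and carries retinoids and other lipids in the fluid and is made by arachnoid cells, choroid plexus and oligodendrocytes. Ptgds (chromosome 2, 25466709 to 25470046, minus strand) drew 4314 counts in replicate 1 against 10265 in replicate 2, or 245 against 562 TPM. It was 2.32-fold higher in replicate 2 (2.24 to 2.41), and 2.35-fold in the kallisto layout with 4025 and 9610 counts. Its direction was opposite to that of all 10 oligodendrocyte markers and of the choroid plexus genes, which were picked with the difference known. The part of oligodendrocytes and of choroid plexus in the Ptgds value was not tested. Ptgds alone made up 90.8% of the summed TPM of the 4 meningeal genes in replicate 1 and 91.4% in replicate 2.

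Igf2 encodes insulin-like growth factor 2, which in most tissues is read from the paternal allele and in choroid plexus and leptomeninges from both. Igf2 (chromosome 7, 142650766 to 142666816, minus strand) drew 925 counts in replicate 1 against 2100 in replicate 2, or 18.8 against 38.8 TPM. It was 2.22-fold higher in replicate 2 (2.05 to 2.40), and 2.19-fold in the kallisto layout. The tables do not separate the alleles of the cross. Igf2 was at 1.08 times the TPM of its binding protein gene Igfbp2 in replicate 1 and 1.85 times in replicate 2. On the same strand Igf2 overlaps Gm49394, with 10 counts in replicate 1 and 0 in replicate 2, and on the other strand Igf2os, with 10 and 15 counts.

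Fmod encodes fibromodulin, a small leucine-rich proteoglycan that binds collagen fibrils. Fmod (chromosome 1, 134037254 to 134048277) drew 121 counts in replicate 1 against 425 in replicate 2, or 1.57 against 5.31 TPM. It was 3.43-fold higher in replicate 2 (2.80 to 4.23), the largest difference among the 10, and 3.25-fold in the kallisto layout with 136 and 449 counts. Of the other proteoglycan genes of its family, all 6 that were counted were higher in replicate 2, against 50.1% of all counted genes. Their median log2 ratio was 0.33 and none was called apart, where 0.384% of all counted genes were. This list was chosen with earlier results of these data known, so the share is a description only. Among the counted genes Dcn, Bgn, Ogn and Lum also stand in the meningeal fibroblast list below. Dcn, encoding decorin, was at 0.36, Bgn, encoding biglycan, at 0.65 and Prelp at 0.11.

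Slc6a13 encodes GAT2, a transporter of GABA and taurine found in leptomeninges and on brain vessels rather than at synapses. Slc6a13 (chromosome 6, 121300227 to 121337733) drew 220 counts in replicate 1 against 458 in replicate 2, or 4.68 against 8.94 TPM. It was 2.03-fold higher in replicate 2 (1.73 to 2.40) but fell short of the 2-fold rule in the kallisto layout at 1.97-fold, in TPM at 1.91-fold and in FPKM. Of 8 related transporter genes counted, none was called apart, where 0.384% of all counted genes were. The meningeal Slc6a20a was at 0.86. Slc6a12, which encodes BGT1 and held 27 and 53 counts, was below the count minimum.

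The log2 ratios of the 4 meningeal genes spanned a narrower range than those of the 5 choroid plexus genes. The wider choroid plexus range came with Kl at -0.21 and Enpp2 at -0.48. Both genes are also made by other cells, and the part of those cells in the range was not tested. Ttr over Clic6 changed 1.30-fold between the libraries, less than Igf2 over Fmod at 1.63-fold. Ptgds stood at 13.1 times the TPM of Igf2 in replicate 1 and 14.5 times in replicate 2, and Igf2 at 4.01 and 4.34 times that of Slc6a13. Fmod departed most, with Igf2 at 11.9 times its TPM in replicate 1 and 7.31 times in replicate 2. The log2 ratios of the 4 meningeal genes ran from 1.02 to 1.78 and those of the 5 choroid plexus genes from -1.55 to -0.21.

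Set against each other within a library, the summed TPM of the 5 choroid plexus genes was 236 in replicate 1 and 107 in replicate 2. That of the 4 meningeal genes was 270.4 and 615. The ratio of choroid plexus to meningeal TPM was 0.871 in replicate 1 and 0.174 in replicate 2, a 5.01-fold difference (mean 0.523 ± 0.493, SD, n = 2). In the kallisto layout the ratio was 0.960 and 0.208, a 4.62-fold difference. Without Enpp2 and Ptgds, the genes that oligodendrocytes also make, it was 6.32 in replicate 1 and 1.02 in replicate 2, so the choroid plexus sum was then the larger one in both libraries. Without Ptgds alone it was 9.42 and 2.02, and without Enpp2 alone 0.584 and 0.0882. Which class led therefore turned on Ptgds. The ratio was higher in replicate 1 in each case, but the opposite directions of the single genes in both classes fixed this beforehand. Nothing further is read from it. Single pairs differed from each other: Ttr over Ptgds was 0.613 and 0.0873, Clic6 over Fmod 1.06 and 0.134, and Kl over Slc6a13 0.991 and 0.428.

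Further genes of the choroid plexus epithelium, taken from a list of 22, were mostly sparse in the RSEM layout. Of these, 9 reached the count minimum, and 7 of the 9 were higher in replicate 1, against 49.9% of all counted genes. Their median log2 ratio was -0.25, nearer to 0 than that of the 5 genes above. This list and those below were chosen with earlier results of these data known, so such shares are descriptions only. Car12, a carbonic anhydrase gene, was at 22.3 and 18.9 TPM with a log2 ratio of -0.05, and Ace at 3.70 and 3.49 TPM with -0.03. The whole list summed to 44.5 and 38.3 TPM. The only gene of the list called apart, the sulfate transporter gene Slc13a4, went the other way at 1.22, with 133 and 317 counts, close to the values of Ptgds and Igf2. In the kallisto layout Mfrp was called too, higher in replicate 1. Of all counted genes 0.384% were called apart, and 0.309% in the kallisto layout. The 13 genes under the minimum held 390 and 219 counts together, 1.82-fold fewer in replicate 2 after scaling. In the kallisto layout the same 13 held 2972 and 2658 counts, 1.14-fold fewer in replicate 2, and nearly all were those of Tmem72. Tmem72 had 69 and 28 counts in the RSEM layout but 2585 and 2416 in the kallisto layout, and the cause was not tested. The other 12 held 321 and 191 counts in the RSEM layout, 1.72-fold fewer in replicate 2, and 387 and 242 in the kallisto layout, 1.62-fold fewer. Among the 13, named after their values were seen, Otx2, the transcription factor that specifies this epithelium, held 30 and 15 counts and the potassium channel subunit gene Kcne2 held 21 and 3. Kcnj13, another channel gene of this epithelium, held 33 and 46 counts. None of the 22 was at 0 in both libraries.

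Further meningeal fibroblast genes, 27 in the list, lay on the same side as the 4 meningeal genes. Of these, 23 were counted and all 23 were higher in replicate 2, against 50.1% of all counted genes. Their log2 ratios ran from 0.01 to 1.34 around a median of 0.64, and the whole list summed to 104 and 151 TPM. The counting intervals of Serpinf1, Lum and Nupr1 did not leave out equal levels. Because the list was chosen with earlier results of these data known, nothing further is read from the shared direction. Col3a1 and Slc22a6, an organic anion transporter gene, were at 1.34, Aldh1a2, a retinoic acid synthesis gene, at 1.26, and the type I collagen genes Col1a2 and Col1a1 at 1.08 and 1.03. These 5 were called apart, where 0.231% of all counted genes were called higher in replicate 2. In the kallisto layout Mgp took the place of Col1a1, where 0.181% of all counted genes were called so. Mgp, an inhibitor of calcification, was at 0.97 with 132 and 265 counts, and Dcn, the highest of the list by TPM, was at 0.36 with 1063 and 1395 counts. The 4 genes under the minimum held 77 and 177 counts together. Ptgds, Igf2 and Slc6a13 lay within the range of this list and Fmod above it.

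Markers of other border and vessel cells are given for comparison. Mural cell markers had a median log2 ratio of 0.58 over 7 genes, macrophages of the brain borders 0.57 over 3, erythroid markers 0.66 over 5 and endothelial markers 0.27 over 8, and 6, 3, 5 and 8 of them were higher in replicate 2, against 50.1% of all counted genes. The endothelial median lay within the 5th to 95th percentile of all genes, and the mural marker Rgs5 was at -0.12. Summed levels were 50.9 and 64.4 TPM for the mural list, 5.37 and 6.87 for macrophages, 345 and 521 for erythroid genes and 79.4 and 82.0 for endothelium. No marker on these lists was called apart, where 0.384% of all counted genes were, and none was at 0 in both libraries. Ependymal markers, from the lining of the ventricles, were at -0.18 over 4 genes, 2 of them higher in replicate 1, and summed to 21.9 and 18.9 TPM. Astrocyte and excitatory neuron markers were at 0.03 and 0.00. The part of these cells in the differences of the 10 genes was not tested.

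**Figure D3:**
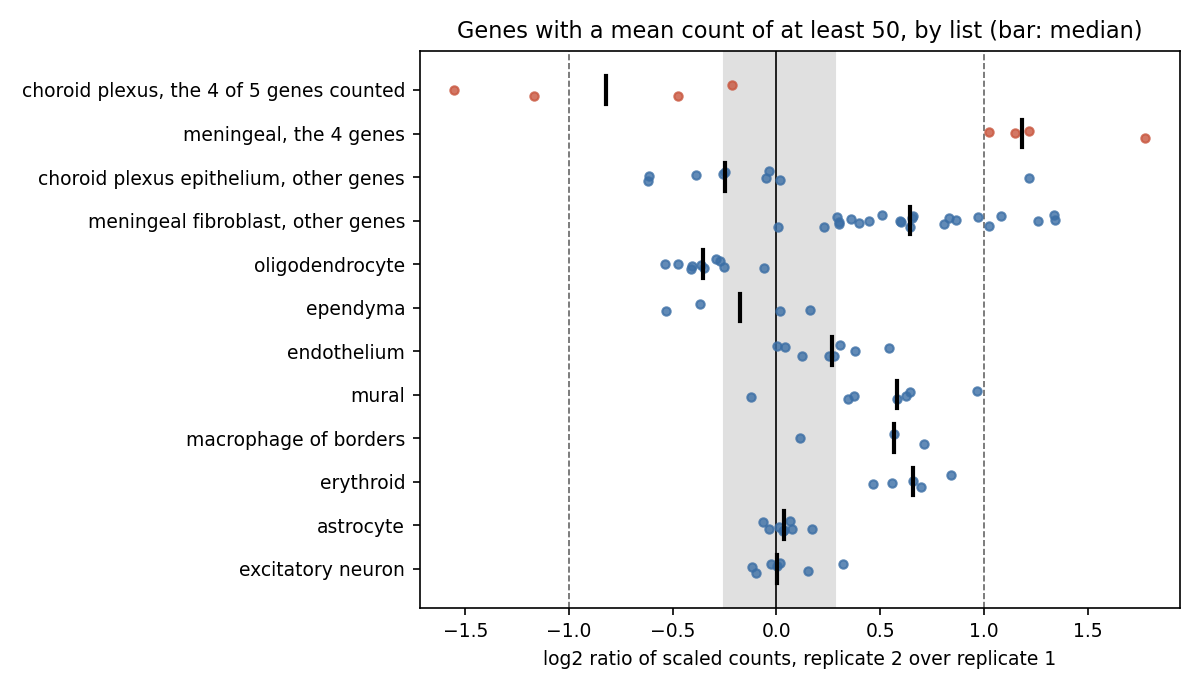
Log2 ratio of scaled counts, replicate 2 over replicate 1, for each counted gene (mean of at least 50), by list. Points are genes, black bars are medians, the grey band holds the 5th to 95th percentile of all such genes and dashed lines mark 2-fold. The meningeal fibroblast list lies wholly above 0 with a median of 0.64, the oligodendrocyte list wholly below 0 with a median of -0.35, and astrocyte and neuron lists lie near 0.

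Genes that act with the 10 carriers were taken from pathway lists. In none of these lists was a gene called apart, and with 0.384% of all counted genes called, lists of this size would hold few or none, so nothing is read from it. Of 18 genes of thyroid hormone and retinol carriage, which work with Ttr and Ptgds products, 14 were counted, and the median log2 ratio was -0.06. The thyroid hormone receptor gene Thra led at 448 and 420 TPM with a log2 ratio of -0.04, and Crym, a cytosolic thyroid hormone binder, was at 103 and 90.2 TPM. Rbp4, whose product travels with transthyretin, was higher in replicate 2 and Ttr in replicate 1: its log2 ratio was 0.51 with 109 and 159 counts, and that of the retinol receptor gene Stra6 was 0.52. Both were named after their values were seen. Serpina7 and Alb, the other thyroid hormone carriers of plasma, held 0 counts in both libraries, which allows up to 3 counts in each.

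The receptors of the IGF and klotho pathways were near 0. Of 15 other genes of the IGF system, 9 were counted, with a median log2 ratio of 0.08. Igfbp5 and Igfbp4 led at 33.7 and 34.0 TPM and at 30.1 and 26.4 TPM, and the insulin receptor gene Insr was at a log2 ratio of 0.06. H19, the imprinted neighbour of Igf2 on chromosome 7, held 5 and 3 counts, and the 9 FGF receptor and klotho pathway genes gave 5 counted, with a median of 0.00. For klotho's signalling partners, Fgfr3, Fgfr1 and Fgfr2 were at -0.06, -0.06 and 0.00, and Fgf23 held 3 counts in each library.

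Folr1, Ptgds and Enpp2 act in folate, prostaglandin and lysophosphatidic acid pathways. Of 12 folate genes 11 were counted, at a median of 0.00, with the transporters Slc19a1 and Slc46a1 at 0.04 and 0.01, and the receptor gene Folr2 held 4 and 9 counts. Of 13 other prostaglandin genes 7 were counted, at a median of -0.03. The cyclooxygenase genes Ptgs1 and Ptgs2, which make the substrate of Ptgds, were at -0.04 and 0.13, and the prostaglandin D2 receptor genes Ptgdr and Ptgdr2 held 14 and 27 and 3 and 2 counts. Of 15 lysophosphatidic acid genes 11 were counted, at a median of -0.10. Lpar1, a receptor gene for the product of Enpp2, was at 7.26 and 6.31 TPM with a log2 ratio of -0.15, and Plpp3, which degrades that product, at 86.5 and 93.1 TPM with 0.17.

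Among 12861 protein-coding genes counted in both layouts, the 5 whose log2 ratio, averaged over the layouts, lay nearest to each class median were found. With only 2 libraries this likeness rests on a single ratio. Near the choroid plexus median of -1.11 were Stpg1 at -1.04, Gm49388 at -1.04, Hes5, a Notch target gene, at -0.99, Gvin1 at -0.98 and Dnah10, an axonemal dynein gene, at -1.26. That median is again the value of Folr1, which lay below the count minimum. For Gm49388 the layouts differed, with -1.56 and -0.52. Near the meningeal median of 1.18 were Slc13a4 at 1.20, Anpep at 1.22, Aldh1a2 at 1.25, H2-Q4 at 1.28 and Spp1 at 1.08. The layouts differed for H2-Q4 too, with 1.66 and 0.90.

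Which transcript led a gene depended on the layout for a few of the 10. For 7 of them 1 transcript led by TPM in each of the 4 tables, and for Folr1, Ptgds and Igf2 the leading transcript changed. For Ptgds the RSEM layout gave Ptgds-202 55.1% and 45.3% of the TPM and Ptgds-201 0.780% and 0.490%. The kallisto layout gave Ptgds-201 79.8% and 76.6% and listed Ptgds-202 at 0, so the tables do not settle the split between these overlapping forms. The noncoding form Ptgds-204 took 22.5% and 30.5% in the RSEM layout and 0.0931% and 1.85% in the kallisto layout. Summed over its transcripts, kallisto-layout counts of Ptgds were 0.933 and 0.936 times those of the RSEM layout.

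Enpp2-201 led Enpp2 with 69.7% and 70.9% of TPM, and with 48.1% and 46.6% in the kallisto layout. By counts, Enpp2-201 held 4137 and 3052 reads, and Enpp2-204 181 and 86.1, both lower in replicate 2. Enpp2-202 held 215 and 226, and 337 and 361 in the kallisto layout, and so was not lower there. In TPM the short forms under 1000 bases weighed more, at 18.8% and 16.8% in the RSEM layout and 41.0% and 41.5% in the kallisto layout, although they held 3.66% and 3.07% of RSEM-layout counts. One of them, Enpp2-205, took 1.13% and 2.97% in the RSEM layout and 25.7% and 26.9% in the kallisto layout. Its start lies within Gm26684, a gene on the opposite strand that held 12 and 21 counts in the RSEM layout and 217 and 205 in the kallisto layout, so this share is uncertain.

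Igf2 reads were spread over 9 annotated transcripts. The forms Igf2-201 and Igf2-202, whose starts at 142657496 and 142657466 follow the Igf2 sequence printed above, together held 67.8% and 66.8% of Igf2 counts, and 60.7% and 55.9% in the kallisto layout. Both forms were higher in replicate 2, with 386 and 914 counts for Igf2-201 and 242 and 488 for Igf2-202. Igf2-205, from an upstream start, held 190 and 337 counts. Igf2-204 held 0 and 70.7 counts in the RSEM layout and 124 and 492 in the kallisto layout, so its share depended on the layout. Short transcripts under 1000 bases took 48.0% and 48.2% of Igf2 TPM with 11.6% and 13.8% of its counts, and the leading form by TPM, Igf2-207 in replicate 1 and Igf2-201 in replicate 2, differed for that gene between the libraries.

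**Figure D4:**
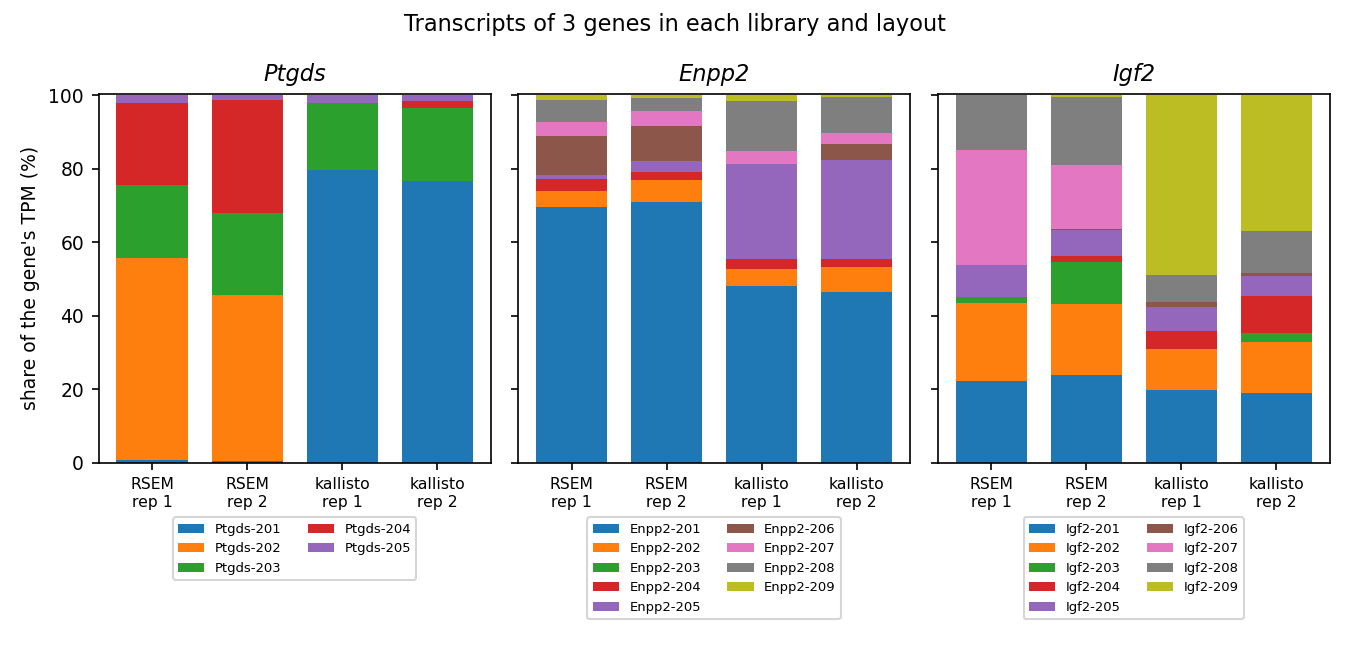
Share of each gene's TPM (percent, stacked) taken by each annotated transcript of Ptgds, Enpp2 and Igf2, in replicates 1 and 2 of the RSEM layout and of the kallisto layout. Ptgds is led by Ptgds-202 in one layout, with 55.1% in replicate 1, and by Ptgds-201 in the other, with 79.8%.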

How the data were processed

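Total RNA of 2 hippocampal libraries was measured. Per the file headers, the authors' gene and transcript tables hold an expected count (an estimated number of reads), a posterior mean count, TPM, FPKM and, for transcripts, the percent of the gene's abundance. A second transcript table holds estimated counts and TPM. The deposited notes give mm10 and GENCODE M21; which programs made the tables, in which version and with which use of strand, was not given in the sources used here. Estimated counts were rounded, and kallisto-layout transcripts were summed per gene. Replicate 1 had 35358099 counts on genes and replicate 2 had 36307276, so a gene of few counts is imprecise. Library sizes left out ERCC spike-ins, 0.493% and 0.489% of counts, and 26248 entries without a gene name, 2.78 and 6.00 counts. Libraries were scaled by TMM (edgeR 4.0.16, R 4.3.3), with DESeq2 1.42.0 size factors as an alternative. Log2 ratios carry no prior count, and intervals are exact 95% binomial intervals conditional on both counts. No molecular identifiers are given, so intervals cover counting error only.

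Levels between genes are compared in TPM. The named genes are the 10, the 3 of highest mean TPM, the lowest and those called apart of each list, the 5 nearest to each class median, and the leading transcripts; others are marked as chosen after their values were seen, or are further members of a list. One gene that the rule names is not reported here. The 10 genes and all lists were chosen with earlier results of these data known. Dcn, Bgn, Ogn, Lum, Slc6a20a, Crabp2, Slco1c1 and Fgfr3 stand in 2 lists each. Calling was tested on simulated data. Python 3.11.15, pandas 2.3.3, numpy 2.4.6, scipy 1.17.1 and matplotlib 3.10.9 were used.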

Additional observations from a re-analysis of the deposited data

How the results depend on the processing

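No paired analysis was possible because the 2 libraries form 1 group. Scaling by DESeq2 size factors, library totals or ERCC totals left 6 genes called apart, and so did posterior mean counts, a 1.5-fold threshold, a count minimum of 10 and no minimum. The number was 5 with TPM, FPKM or kallisto-layout counts, without Slc6a13, and 5 with a minimum of 200, without Clic6. Of 70 recomputed log2 ratios of single genes, 69 stayed within the counting interval, none changed sign, and that of Enpp2 by TPM, at -0.56, lay outside it. The choroid plexus median ranged from -1.14 with kallisto-layout counts to -0.72 with Igfbp2 included. The meningeal median of 1.18 became a mean of 1.29 over members, which weights Fmod more, and was 1.12 to 1.19 under the other settings. The ratio of choroid plexus to meningeal TPM, 0.523 on average, was 3.67 without Enpp2 and Ptgds, and, in settings chosen after seeing the data, 5.72 without Ptgds alone, the largest meningeal gene, and 0.336 without Enpp2 alone, and 0.278 with medians of members. With 1 library left out it ranged from 0.174 to 0.871. With a single library no log2 ratio exists. Depth limits Folr1 and the choroid plexus genes under the count minimum, and in TPM the share of short transcripts depends on the layout.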
